A study of Arabidopsis thaliana with 16 samples.

Results

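The question addressed here was which transcripts ABA changed in germinating seeds labelled *sweet1* while Glc was also supplied. The 4 ABA+Glc libraries were compared with the 4 Glc libraries, 8 of the 16 libraries of the series, and the groups came from the labels alone. ABA+Glc seeds were treated with 5 µM ABA plus 60 mM Glc and Glc seeds with 60 mM Glc. The ABA effect without Glc was taken from the other 8 libraries, in which ABA seeds received 5 µM ABA and control seeds received neither. All libraries were made from whole *Arabidopsis thaliana* seeds labelled as the *sweet1* mutant, 1 T-DNA line in the Col-0 background, at 30 h after imbibition and after 6 h of treatment in liquid medium. The labelled mutation and the Glc were thus shared by both groups compared, and only ABA set them apart. The labels call the 4 samples of a group biological replicates, and no wild-type seeds were analysed here.

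ABA is the hormone that holds seeds dormant and delays germination under stress. It binds PYR/PYL receptors, which then block clade A protein phosphatases 2C (PP2Cs) and release SnRK2 kinases, and these phosphorylate bZIP transcription factors such as ABI5 and the ABFs. The factors bind promoter elements with the core ACGTG and turn on genes for late embryogenesis abundant (LEA) proteins, which protect cells during drying, and other genes of seed maturation. Glc can relieve the delay of germination by ABA, and SWEET1 is a sugar transporter of the SWEET family.

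Each file gave 1 value per gene under the header TPM, and these values are called TPM here. The header names an abundance scaled to transcript length and library total, but the deposited values did not share a common total. They summed to 1003493 to 1030227 in ABA+Glc libraries and to 951008 to 984279 in Glc libraries. The median ratio of genes to their geometric mean over the 16 libraries was nearly equal, at 1.0009 to 1.0077 in ABA+Glc and 1.0027 to 1.0074 in Glc libraries. Of 27655 genes, 17500 exceeded 0.5 TPM in no fewer than 50% of the 16 libraries and were tested. *SWEET1* (AT1G21460, chr1:7511750-7513481 on the minus strand, TAIR10.1) had 14.9, 11.5, 8.29 and 11.2 TPM in ABA+Glc seeds, against 12.4, 13.6, 14.5 and 17.59 TPM in Glc seeds (replicates 1 to 4 in this order, as in all lists of 4 values below). The groups overlapped and the gene did not pass the test (log2 change -0.34 ± 0.14 (SE), adjusted p = 0.125). The gene named in the label was thus listed at 8.29 to 17.59 TPM in all 8 libraries compared, so its signal was not absent from any of them. In the ABA and control libraries, also labelled *sweet1*, it had 10.8 to 17.1 TPM. With 1 value per gene, transcript from either side of an insertion cannot be told from a whole one. Whether the whole transcript was lost, and whether the seeds had the labelled genotype, was not tested.

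ABA+Glc replicate 3, which the paper left out, stood apart from the other 7 libraries. On log2(TPM + 0.5) it correlated with the rest of its group at 0.9812 to 0.9827, while those 3 libraries correlated with each other at 0.9902 to 0.991 and the Glc libraries at 0.9893 to 0.991. The ABA+Glc replicate lay at 33.99 on the second principal component, against -15.81 to -11.44 for the other ABA+Glc libraries and -1.38 to 9.57 for the Glc libraries. The first component separated the treatments without overlap, at 21.38 to 33.65 for ABA+Glc and -26.56 to -24.28 for Glc. Results are therefore given over 4 against 4 libraries, and many of them also without this replicate.

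**Figure D1:**
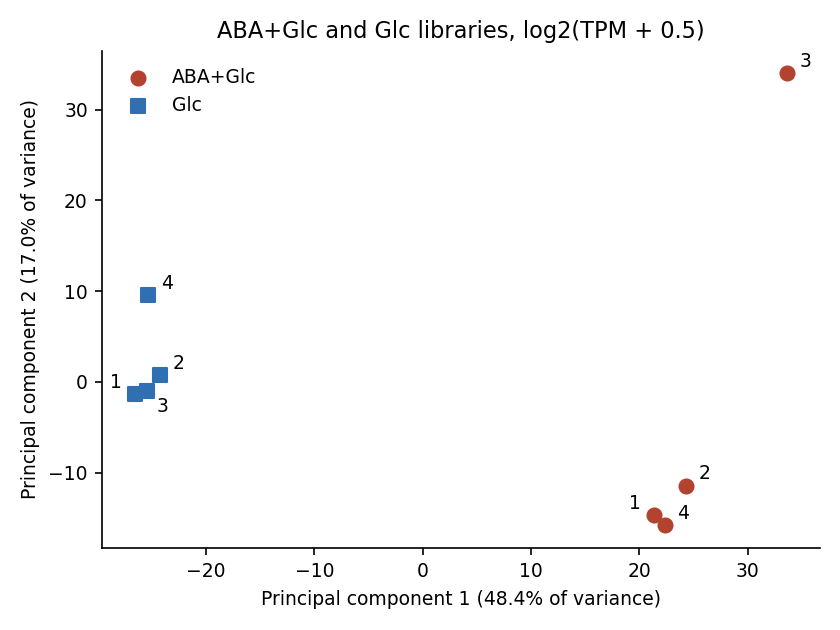
Principal components of the 8 libraries on log2(TPM + 0.5), with component 1 (48.4% of the variance) on the x axis and component 2 (17%) on the y axis, and the replicate number beside each point. The ABA+Glc circles lie right of the Glc squares, and ABA+Glc replicate 3 lies alone at the top.

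With Glc present, ABA raised 1019 genes (5.82% of those tested) and lowered 1078 genes (6.16%). A gene was called at a Benjamini-Hochberg adjusted p below 0.05 in limma and a log2 change of at least 0.289 (1.22-fold) in either direction. Without ABA+Glc replicate 3 the counts were 972 (5.55%) and 1045 (5.97%), of which 858 and 868 genes were shared with the full set, and no gene was called in opposite directions. Values of the 4 ABA+Glc libraries lay all above those of the Glc libraries for 1553 genes (8.87%) and all below for 1692 genes (9.67%). The rises reached further than the falls. Among the called genes, 285 rose and 131 fell by at least 2-fold, and 105 rose and 6 fell by at least 4-fold. When libraries were scaled to the same sum, the median change of all genes was -0.06 on the log2 scale and 33.3% of the calls were rises (789 higher, 1580 lower), against 48.6% as deposited.

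*LTI78* (AT5G52310, chr5:21240717-21243644), also known as *RD29A* and induced by ABA, cold and drought, had 50.4, 49.2, 44.4 and 39.97 TPM in ABA+Glc seeds, against 0.68, 1.17, 0.76 and 0.58 TPM in Glc seeds. All ABA+Glc libraries lay far above all Glc libraries, and this was the largest rise of any gene tested (log2 change 5.18 ± 0.16 (SE), adjusted p = 5.46e-13). Its neighbour *LTI65* (AT5G52300, chr5:21237021-21239531), also known as *RD29B*, had 193, 199.8, 177 and 175 TPM in ABA+Glc seeds, against 10.1, 9.76, 8.48 and 6.85 TPM in Glc seeds (log2 change 4.34 ± 0.12 (SE), adjusted p = 5.32e-13). AT2G42560, annotated as a LEA domain-containing protein, had 320.2, 321, 329.6 and 261 TPM in ABA+Glc seeds, against 9.11, 11, 12.4 and 8.90 TPM in Glc seeds (log2 change 4.83 ± 0.19 (SE), adjusted p = 4.31e-12). No Glc library reached the level of any ABA+Glc library in these genes, and ABA+Glc replicate 3 lay within or close to the range of its group.

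Promoters of 4 of the genes with large rises and of *FLA9* and *GPT2*, both among the largest falls described further on, are shown here because ACGTG cores were far more frequent before the genes that rose. Each sequence runs 5′ to 3′ on the strand of the gene, covers 250 bases before to 50 bases after the annotated start in TAIR10.1 (RefSeq annotation) and has in capitals every ACGTG on either strand. In *LTI78*, which has no ACGTG in this window, the capitals mark ACCGAC and GCCGAC, the core of the drought-responsive element.
*LTI78* (chr5:21240467-21240766, plus strand): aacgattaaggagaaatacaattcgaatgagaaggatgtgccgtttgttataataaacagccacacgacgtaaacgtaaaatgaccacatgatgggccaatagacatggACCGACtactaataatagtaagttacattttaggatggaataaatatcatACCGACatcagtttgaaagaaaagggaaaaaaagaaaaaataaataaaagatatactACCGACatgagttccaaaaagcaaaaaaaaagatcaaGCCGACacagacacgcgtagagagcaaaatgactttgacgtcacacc
*LTI65* (chr5:21236771-21237070, plus strand): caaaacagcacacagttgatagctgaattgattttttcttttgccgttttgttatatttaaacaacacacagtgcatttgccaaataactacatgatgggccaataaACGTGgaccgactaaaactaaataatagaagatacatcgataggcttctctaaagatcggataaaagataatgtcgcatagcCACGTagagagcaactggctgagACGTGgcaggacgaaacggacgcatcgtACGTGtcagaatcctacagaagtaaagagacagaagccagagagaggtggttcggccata
AT2G42560 (chr2:17716863-17717162, minus strand): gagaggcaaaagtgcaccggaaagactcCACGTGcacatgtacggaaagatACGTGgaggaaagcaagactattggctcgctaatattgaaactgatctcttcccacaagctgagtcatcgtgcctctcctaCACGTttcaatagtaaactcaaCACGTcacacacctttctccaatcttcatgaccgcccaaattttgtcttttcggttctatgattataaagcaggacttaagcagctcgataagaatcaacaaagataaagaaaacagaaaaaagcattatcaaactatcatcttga
*EM1* (chr3:19214472-19214771, plus strand): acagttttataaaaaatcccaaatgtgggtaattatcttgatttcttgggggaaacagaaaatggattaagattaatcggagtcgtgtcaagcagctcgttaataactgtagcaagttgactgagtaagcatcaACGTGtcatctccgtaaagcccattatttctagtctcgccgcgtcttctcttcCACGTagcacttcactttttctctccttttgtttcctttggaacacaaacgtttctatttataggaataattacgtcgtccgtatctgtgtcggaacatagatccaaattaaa
*FLA9* (chr1:983495-983794, minus strand): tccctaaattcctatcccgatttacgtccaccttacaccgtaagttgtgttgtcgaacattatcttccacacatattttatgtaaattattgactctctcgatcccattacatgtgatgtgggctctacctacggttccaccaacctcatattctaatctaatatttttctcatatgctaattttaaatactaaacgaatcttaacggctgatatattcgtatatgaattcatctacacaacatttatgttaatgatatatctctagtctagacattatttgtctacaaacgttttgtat
*GPT2* (chr1:22824164-22824463, plus strand): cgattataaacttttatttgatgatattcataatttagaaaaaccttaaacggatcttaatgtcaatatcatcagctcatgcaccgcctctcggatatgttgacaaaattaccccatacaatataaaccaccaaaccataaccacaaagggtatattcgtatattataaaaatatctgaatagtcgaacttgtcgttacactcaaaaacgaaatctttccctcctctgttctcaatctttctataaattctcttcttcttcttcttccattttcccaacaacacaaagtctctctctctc

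*LTI65* and AT2G42560 had 4 separate ACGTG matches each and *EM1* had 2, overlapping matches being counted once, while *FLA9* and *GPT2* had 0. Here and below, the 12 largest rises and the 12 largest falls were taken among called genes with a mean of at least 10 TPM in the higher group. Their calls also held without ABA+Glc replicate 3, and their groups did not overlap. Of these 12 genes with the largest rises 11 had at least 1 match, and of the 12 with the largest falls 2 had one. An ACGTG on either strand was present in 85.6% of the 104 nuclear genes that rose at least 4-fold and in 53.3% of the 997 nuclear genes that rose. It was present in 29.3% of the 1078 genes that fell, in 25.7% of the genes not called and in 27.5% of all 17339 promoters of tested nuclear genes. The palindrome CACGTG, which contains ACGTG on both strands, was present in 56.7% of the promoters with at least 4-fold rises, 27.4% of those with rises, 8.44% of those with falls and 9.34% of all. ACCGAC or GCCGAC on either strand was found in 21.2%, 16.1%, 8.35% and 10.1% of the same 4 sets. These are matches of letters only, and no binding was measured.

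Of the 24 tested genes on a list of LEA and desiccation genes, 22 rose (21 without ABA+Glc replicate 3) and 0 fell, with a median log2 change of 2.51, against a median of 0.00 over all genes tested. The 26 listed genes together took 13750, 14560, 16690 and 13420 TPM in ABA+Glc libraries and 2436, 2820, 2405 and 2219 TPM in Glc libraries, so that the groups did not overlap. *EM1* (AT3G51810), a group 1 LEA protein of the dry embryo, had 826, 829, 947 and 772 TPM in ABA+Glc seeds, against 55.3, 58.4, 52.0 and 41.7 TPM in Glc seeds (log2 change 4.02 ± 0.19 (SE), adjusted p = 4.78e-11). *KIN1* (AT5G15960), induced by cold and ABA, had 25.2, 21.8, 21.6 and 17.5 TPM in ABA+Glc seeds, against 0.94, 0.42, 0.57 and 0.45 TPM in Glc seeds (log2 change 4.34 ± 0.14 (SE), adjusted p = 6.62e-13). It lies next to its close copy *KIN2* on chromosome 5, and how reads were split between the copies is uncertain. The dehydrin *RAB18* (AT5G66400) had 594, 630.0, 721 and 578 TPM in ABA+Glc seeds, against 210.2, 197, 188 and 117 TPM in Glc seeds (log2 change 1.85 ± 0.21 (SE), adjusted p = 5.04e-06). Glc replicate 4 was the lowest Glc library for this gene. The dehydrins *ERD10* and *COR47* did not pass the test, at log2 changes of -0.21 (adjusted p = 0.235) and 0.15 (adjusted p = 0.461).

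Among the 12 genes with the largest rises, a further 3 are annotated as proteins of the LEA type. AT3G53040, a putative LEA protein, had 270.0, 273, 397 and 239.9 TPM in ABA+Glc seeds, against 19.2, 21.0, 18.4 and 17.2 TPM in Glc seeds (log2 change 3.90). AT4G36600, a LEA protein, had 126, 126, 113 and 101 TPM in ABA+Glc seeds, against 7.82, 7.84, 8.18 and 5.46 TPM in Glc seeds (log2 change 3.91). AT4G39130, of the dehydrin family, had 29.0, 28.0, 37.0 and 25.9 TPM in ABA+Glc seeds, against 1.18, 1.57, 2.73 and 0.28 TPM in Glc seeds (log2 change 4.13). ABA+Glc replicate 3 was the highest library in AT3G53040 and AT4G39130, and both genes rose without it as well (3.75 and 4.03). *NADP-ME1* (AT2G19900), a malic enzyme that releases CO2 from malate, had 37.0, 36.9, 33.7 and 30.8 TPM in ABA+Glc seeds, against 1.63, 1.28, 1.48 and 1.51 TPM in Glc seeds (log2 change 4.15 ± 0.13 (SE), adjusted p = 5.46e-13). *PV42B* (AT1G80090), of the cystathionine beta-synthase domain family, had 51.4, 52.8, 49.4 and 54.6 TPM in ABA+Glc seeds, against 2.61, 4.0, 1.88 and 2.6 TPM in Glc seeds (log2 change 4.04 ± 0.13 (SE), adjusted p = 5.46e-13). The last 2 of the 12, AT3G15280 and AT2G19320, encode uncharacterized proteins and rose by 4.26 and 4.04 on the log2 scale.

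Storage proteins feed the seedling, and oleosins coat the oil bodies in which seeds keep their reserve of fat. Of 18 listed genes of these kinds, all tested, 10 rose (8 without ABA+Glc replicate 3) and 0 fell, with a median log2 change of 0.74. *OLEO2* (AT5G40420) had 403, 380.0, 319.6 and 357 TPM in ABA+Glc seeds, against 39.7, 37.5, 34.4 and 24.6 TPM in Glc seeds (log2 change 3.42 ± 0.16 (SE), adjusted p = 3.83e-11), and *OLEO1* (AT4G25140) had 473, 489, 492 and 399 TPM in ABA+Glc seeds, against 64.2, 70.7, 59.5 and 37.9 TPM in Glc seeds (log2 change 3.02 ± 0.17 (SE), adjusted p = 4.19e-10). The cruciferin *CRA1* (AT5G44120), a 12S globulin, had 1234, 1333, 1001 and 1266 TPM in ABA+Glc seeds, against 233, 259, 256 and 200.02 TPM in Glc seeds (log2 change 2.35 ± 0.13 (SE), adjusted p = 3.47e-10). The groups lay apart in all 3 genes. The 2S albumin genes *SESA1* to *SESA5* did not pass the test (log2 changes -0.04 to 0.27), nor did the cruciferin genes *CRB* and *CRU2* (-0.08 and -0.17). The summed level of the list was 3153 to 3691 TPM in ABA+Glc libraries and 809.9 to 1519 TPM in Glc libraries, of which Glc replicate 4 was the lowest. Of 15 tested aquaporins 2 rose and 3 fell (5 fell without ABA+Glc replicate 4), and those that rose belong to the protein storage vacuole. *TIP3;1* (AT1G73190) had 55.1, 62.6, 35.7 and 45.5 TPM in ABA+Glc seeds, against 12.5, 14.2, 9.34 and 6.09 TPM in Glc seeds (log2 change 2.22 ± 0.30 (SE), adjusted p = 3.51e-05), and *TIP3;2* (AT1G17810) had 23.0, 27.3, 22.3 and 22.8 TPM in ABA+Glc seeds, against 11.9, 10.04, 14.4 and 4.56 TPM in Glc seeds (log2 change 1.28 ± 0.29 (SE), adjusted p = 0.00498).

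**Figure D2:**
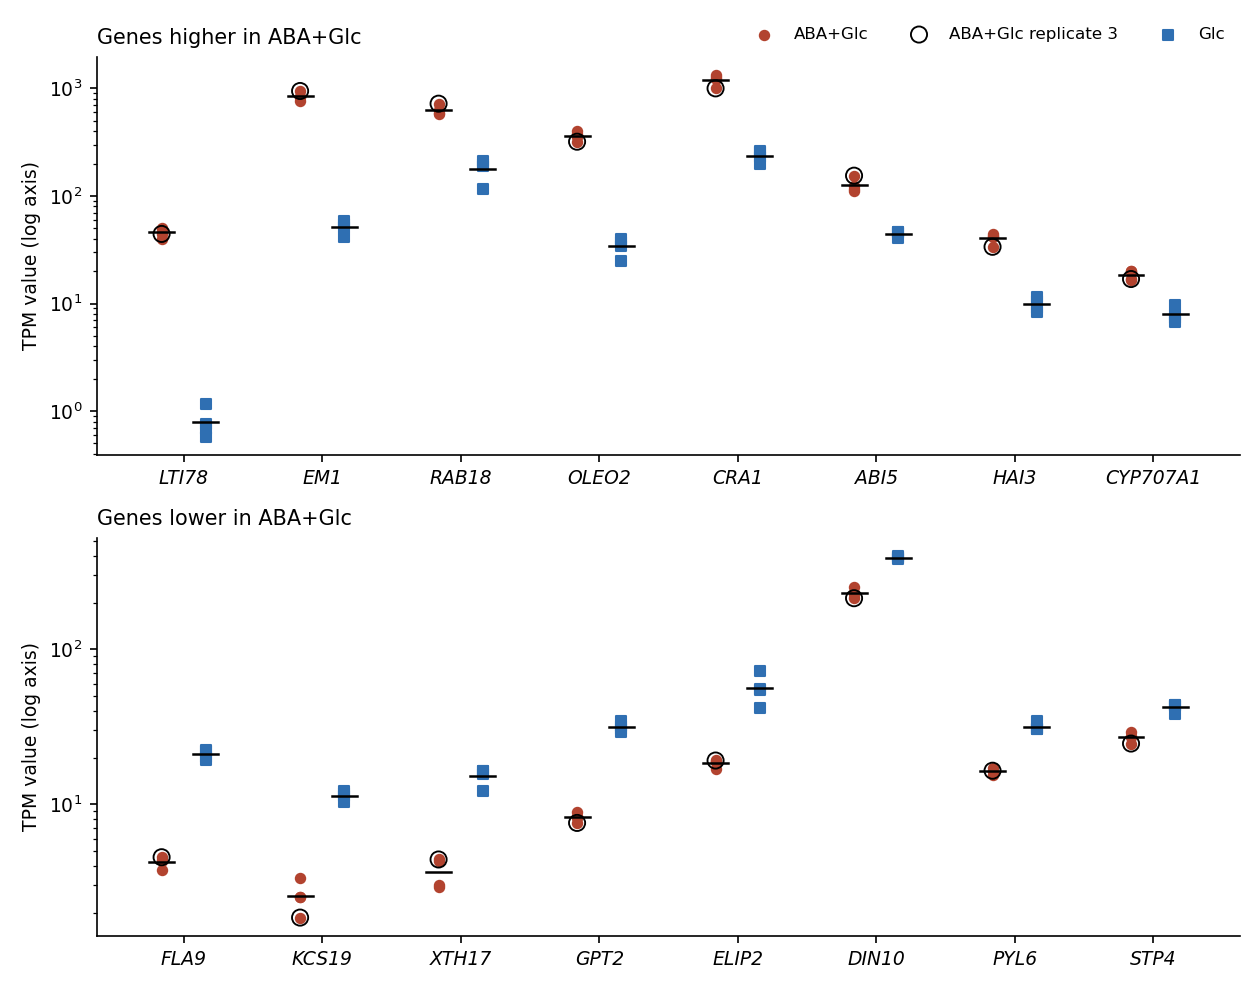
Values of 16 genes in each of the 8 libraries (TPM on a log axis), 8 that rose above and 8 that fell below, with ABA+Glc circles left of Glc squares, ABA+Glc replicate 3 ringed and bars at the mean of 4 libraries. The 2 groups do not overlap in any of the 16 genes.

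ABA signalling genes were read at 4 levels, receptors, PP2Cs, SnRK2 kinases and transcription factors. Among 12 tested receptor genes 2 rose and 4 fell, with a median log2 change of -0.10. *PYL13* (AT4G18620) had 19.0, 17.5, 17.5 and 17.64 TPM in ABA+Glc seeds, against 8.56, 9.06, 5.82 and 5.09 TPM in Glc seeds (log2 change 1.31 ± 0.15 (SE), adjusted p = 3.8e-06). *PYL11* (AT5G45860) had 18.5, 11.4, 18.3 and 12.8 TPM in ABA+Glc seeds, against 8.24, 7.32, 8.87 and 8.71 TPM in Glc seeds (log2 change 0.82 ± 0.14 (SE), adjusted p = 0.000421). The receptor genes that fell were in part abundant ones. *PYL6* (AT2G40330) had 16.3, 17.1, 16.5 and 15.4 TPM in ABA+Glc seeds, against 30.5, 30.5, 31.1 and 34.7 TPM in Glc seeds (log2 change -0.94 ± 0.09 (SE), adjusted p = 5.02e-07), and *PYL4* (AT2G38310) had 87.5, 90.3, 118 and 94.1 TPM in ABA+Glc seeds, against 135, 132, 136 and 155 TPM in Glc seeds (log2 change -0.52 ± 0.08 (SE), adjusted p = 0.00011). *PYL2* fell by 0.42 and *PYL5* by 0.35 on the log2 scale. *PYR1*, the most abundant receptor transcript, had 299.6, 298, 427 and 296 TPM in ABA+Glc seeds, against 311, 307, 343 and 362 TPM in Glc seeds, and the groups overlapped through ABA+Glc replicate 3 (adjusted p = 0.941). *PYL1*, *PYL7*, *PYL8*, *PYL9* and *PYL12* did not pass the test, and *PYL3* and *PYL10* were listed at 0 in all 8 libraries.

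The PP2Cs keep the pathway off when ABA is absent. Of 8 tested genes 6 rose and 0 fell, with a median log2 change of 0.75. *HAI3* (AT2G29380) had 42.6, 44.7, 33.7 and 41.5 TPM in ABA+Glc seeds, against 9.18, 11.4, 10.6 and 8.39 TPM in Glc seeds (log2 change 1.99 ± 0.11 (SE), adjusted p = 2.39e-10). *AHG1* (AT5G51760), which acts mainly in seeds, had 82.3, 88.2, 102 and 76.6 TPM in ABA+Glc seeds, against 25.9, 23.9, 22.1 and 21.3 TPM in Glc seeds (log2 change 1.88 ± 0.10 (SE), adjusted p = 3.9e-10). *HAI2* (AT1G07430) had 27.1, 26.6, 27.5 and 24.1 TPM in ABA+Glc seeds, against 8.35, 7.87, 8.51 and 7.75 TPM in Glc seeds (log2 change 1.64 ± 0.07 (SE), adjusted p = 1.75e-11). *ABI2*, *HAB1* and *PP2CA* rose by 0.87, 0.63 and 0.62 on the log2 scale, and the groups overlapped in none of the 6. *ABI1* had a log2 change of -0.06 (adjusted p = 0.627), and *HAB2*, at 0.29, lay just under the minimum change although its adjusted p was 0.0179. The ninth listed gene, *HAI1*, had 0.12, 0.49, 0.67 and 0.45 TPM in ABA+Glc seeds, against 0.12, 0.05, 0.00 and 0.00 TPM in Glc seeds and was below the filter. Together the 9 genes had 287.5 to 321.2 TPM in ABA+Glc libraries and 152.8 to 165.4 TPM in Glc libraries.

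Of 8 tested SnRK2 kinase genes only *SNRK2.10* was called (62.4, 63.8, 57.2 and 62.6 TPM in ABA+Glc seeds, against 48.4, 42.4, 48.5 and 47.9 TPM in Glc seeds, log2 change 0.39 ± 0.06 (SE), adjusted p = 6.73e-05). The 3 kinases central to ABA signalling, *SNRK2.2*, *SNRK2.3* and *SNRK2.6*, had log2 changes of 0.11 ± 0.05, 0.01 ± 0.05 and 0.06 ± 0.08 (SE), with adjusted p of 0.153, 0.925 and 0.66.

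Of 16 tested transcription factor genes of the ABA response, 8 rose and 0 fell, with a median log2 change of 0.28, and 6 rose without ABA+Glc replicate 3 or when libraries were scaled to the same sum. *ABI5* (AT2G36270), the bZIP factor that blocks growth after germination, had 117, 123, 154 and 112 TPM in ABA+Glc seeds, against 46.1, 46.7, 40.9 and 45.2 TPM in Glc seeds (log2 change 1.48 ± 0.10 (SE), adjusted p = 3.33e-09). ABA+Glc replicate 3 was the highest library, and the log2 change without it was 1.38. *GBF3* (AT2G46270), a G-box binding factor, had 24.9, 30.1, 37.8 and 25.9 TPM in ABA+Glc seeds, against 9.66, 10.2, 10.5 and 10.2 TPM in Glc seeds (log2 change 1.49 ± 0.10 (SE), adjusted p = 9.05e-09). The homeodomain gene *HB7* (AT2G46680) had 4.05, 5.12, 7.32 and 5.51 TPM in ABA+Glc seeds, against 1.62, 1.51, 1.61 and 1.63 TPM in Glc seeds (log2 change 1.49 ± 0.14 (SE), adjusted p = 4.74e-07). *EEL*, *ABF4* and *ABF3*, bZIP factors close to *ABI5*, rose by 0.97, 0.66 and 0.46 on the log2 scale. *ABF1*, *ABF2* and *AREB3* did not pass the test (adjusted p of 0.166, 0.436 and 0.246), and neither did *ABI4*, *HB5*, *HB6*, *HB12* and *MYB96*. The maturation regulator *ABI3* (AT3G24650) had 118, 127, 159 and 114 TPM in ABA+Glc seeds, against 102, 104, 96.8 and 111 TPM in Glc seeds (log2 change 0.31 ± 0.08 (SE), adjusted p = 0.0158). Its call ended without ABA+Glc replicate 3 or Glc replicate 3 (log2 changes of 0.21 to 0.28) and when libraries were scaled to the same sum (0.24). The call of *NAC072* (log2 change 0.56) ended when any of 5 libraries was left out, ABA+Glc replicates 1, 3 and 4 and Glc replicates 3 and 4 (log2 changes of 0.43 to 0.56).

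**Figure D3:**
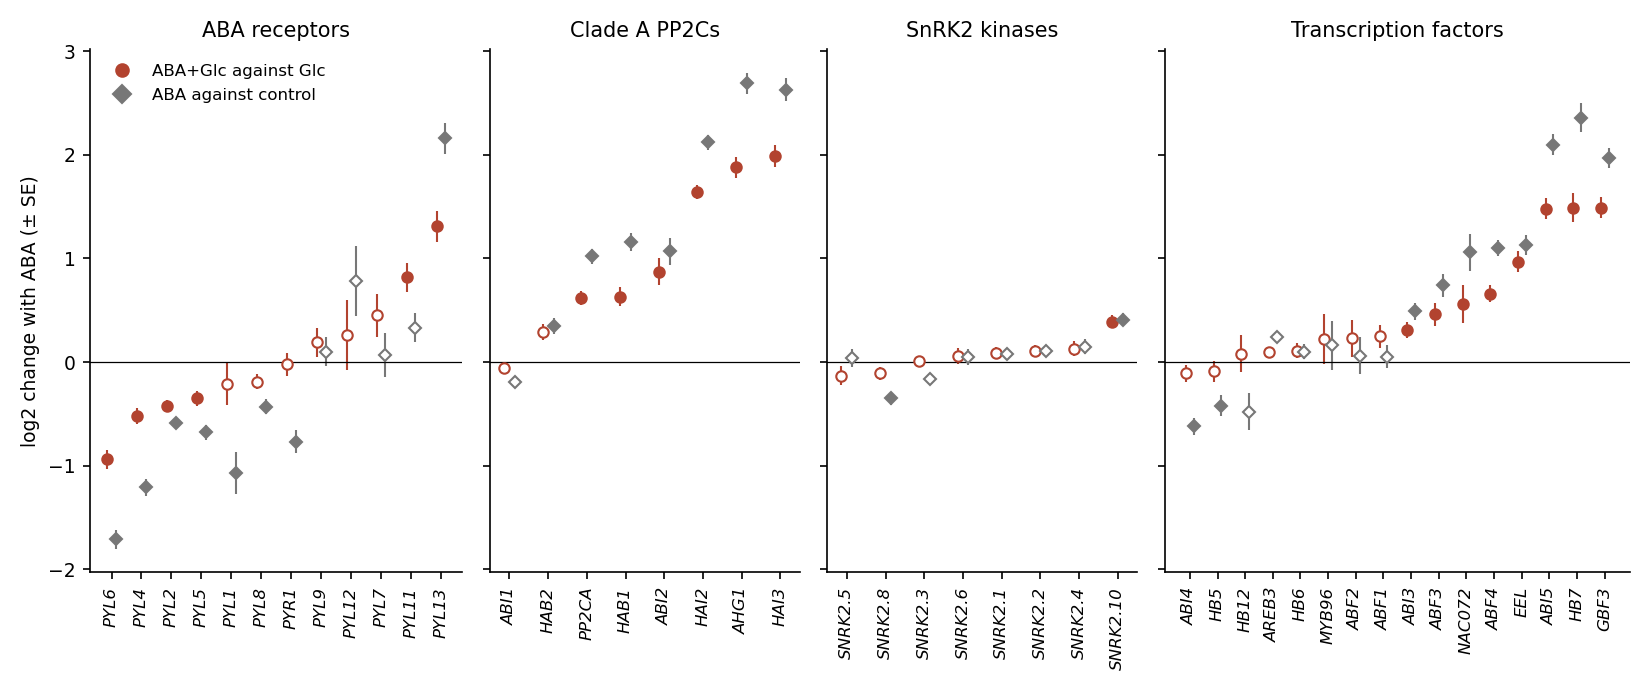
Log2 change with ABA (y axis, ± SE from limma) of the tested ABA receptors, clade A PP2Cs, SnRK2 kinases and transcription factors, for ABA+Glc against Glc (circles) and ABA against control (diamonds). Filled symbols passed the test and open ones did not, and *HAI3*, *AHG1* and *HAI2* stand highest among the circles.

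Proteins that bind ABI5 or regulate germination beside it also rose, in 5 of 9 tested genes with 0 falling. *AFP1* (AT1G69260), an ABI5-binding protein, had 14.6, 17.3, 18.5 and 13.2 TPM in ABA+Glc seeds, against 4.57, 4.62, 2.87 and 3.11 TPM in Glc seeds (log2 change 1.95 ± 0.14 (SE), adjusted p = 9.6e-09), and *AFP3* rose by 1.3 on the log2 scale. *MFT* (AT1G18100), a seed-specific relative of *FT* that acts in the ABA control of germination, had 6.74, 8.55, 10.5 and 8.65 TPM in ABA+Glc seeds, against 3.68, 1.84, 1.28 and 1.59 TPM in Glc seeds (log2 change 1.87 ± 0.33 (SE), adjusted p = 0.000515). Of ABA synthesis genes 3 of 7 tested rose, and of ABA breakdown genes 2 of 3, with 0 falling in either list. *ABA1* (AT5G67030), the zeaxanthin epoxidase of the synthesis pathway, had 27.3, 28.1, 28.2 and 27.1 TPM in ABA+Glc seeds, against 15.0, 15.5, 13.8 and 14.6 TPM in Glc seeds (log2 change 0.89 ± 0.06 (SE), adjusted p = 3.79e-09). *NCED5* rose by 0.86 and *NCED9* by 0.56, and these genes encode the cleavage enzyme of the pathway, while *NCED3*, *AAO3*, *ABA2* and *ABA3* did not pass the test. The call of *NCED9* ended without ABA+Glc replicate 2 or Glc replicate 1 (log2 change of 0.48 in each case). The ABA 8′-hydroxylase gene *CYP707A1* (AT4G19230) had 16.4, 20.1, 16.9 and 20.2 TPM in ABA+Glc seeds, against 9.76, 7.76, 7.40 and 6.76 TPM in Glc seeds (log2 change 1.17 ± 0.11 (SE), adjusted p = 3.18e-07). *CYP707A2* (AT2G29090) had 7.16, 8.95, 8.78 and 7.47 TPM in ABA+Glc seeds, against 3.18, 3.40, 2.9 and 2.86 TPM in Glc seeds (log2 change 1.26 ± 0.11 (SE), adjusted p = 2.22e-07). The third tested hydroxylase gene, *CYP707A3*, had a log2 change of 0.20 (adjusted p = 0.306).

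The largest falls were smaller than the largest rises. *FLA9* (AT1G03870, chr1:982381-983544), a fasciclin-like arabinogalactan protein of the cell surface, had 4.36, 3.79, 4.56 and 4.31 TPM in ABA+Glc seeds, against 20.3, 22.5, 19.3 and 21.9 TPM in Glc seeds (log2 change -2.18 ± 0.11 (SE), adjusted p = 1.89e-10). *XTH17* (AT1G65310), a xyloglucan endotransglucosylase that cuts and rejoins wall polymers, had 3.03, 4.28, 4.41 and 2.92 TPM in ABA+Glc seeds, against 15.6, 16.4, 12.2 and 16.5 TPM in Glc seeds (log2 change -1.92 ± 0.18 (SE), adjusted p = 3.84e-07). *AGP18* (AT4G37450), an arabinogalactan protein, had 3.48, 3.93, 3.64 and 3.30 TPM in ABA+Glc seeds, against 9.72, 11.4, 10.6 and 10.9 TPM in Glc seeds (log2 change -1.45 ± 0.12 (SE), adjusted p = 5.59e-08). The groups lay apart in all 3 genes. Among 22 tested xyloglucan endotransglucosylase and mannanase genes 13 fell and 2 rose, with a median log2 change of -0.53. *XTH18* (AT4G30280) had 10.2, 12.5, 11.1 and 10.3 TPM in ABA+Glc seeds, against 34.6, 30.7, 30.1 and 28.7 TPM in Glc seeds (log2 change -1.45 ± 0.11 (SE), adjusted p = 1.58e-08), and *XTH33* fell by 1.82 on the log2 scale. The 2 members that rose were *MAN7* (AT5G66460), a mannanase of the endosperm in germination, with 51.4, 57.1, 61.4 and 50.1 TPM in ABA+Glc seeds, against 28.7, 28.7, 28.1 and 30.4 TPM in Glc seeds (log2 change 0.91 ± 0.08 (SE), adjusted p = 9.27e-08), and *XTH15*. The call of *XTH15* (log2 change 0.32) ended without ABA+Glc replicates 2 or 4 or Glc replicate 4 (log2 changes of 0.24 to 0.30) and when libraries were scaled to the same sum (0.25).

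Expansins loosen the wall as cells elongate. Of 12 tested alpha-expansin genes 6 fell and 1 rose, with a median log2 change of -0.23. All 16 listed genes together had 4838 to 4931 TPM in ABA+Glc libraries and 5706 to 5991 TPM in Glc libraries. *EXPA1* (AT1G69530) had 1340, 1359, 1345 and 1328 TPM in ABA+Glc seeds, against 1838, 1866, 1833 and 1929 TPM in Glc seeds and fell (log2 change -0.47 ± 0.04 (SE), adjusted p = 2.04e-07). *EXPA2*, of similar abundance and typical of the endosperm, had 1393, 1398, 1336 and 1489 TPM in ABA+Glc seeds, against 1472, 1414, 1397 and 1404 TPM in Glc seeds and did not pass the test (log2 change -0.02). *EXPA4* was the member that rose (12.1, 13.4, 11.7 and 10.6 TPM in ABA+Glc seeds, against 6.05, 8.45, 7.69 and 7.77 TPM in Glc seeds, log2 change 0.64). Of 13 tested genes of cellulose and xyloglucan synthesis 7 fell and 0 rose (median -0.29). This count was 4 without ABA+Glc replicate 3 and 4 without Glc replicate 3. *CESA5* (AT5G09870), a cellulose synthase, had 5.83, 6.29, 5.65 and 5.22 TPM in ABA+Glc seeds, against 8.79, 7.91, 8.21 and 8.27 TPM in Glc seeds (log2 change -0.50 ± 0.08 (SE), adjusted p = 0.000314). Of 13 tested pectin genes 4 fell and 1 rose (median -0.22). *PME3* (AT3G14310), a pectin methylesterase, had 141, 140.1, 129 and 137 TPM in ABA+Glc seeds, against 226, 231, 224 and 237 TPM in Glc seeds (log2 change -0.74 ± 0.05 (SE), adjusted p = 7.99e-09). *PMEPCRA* (AT1G11580), another pectin methylesterase, had 590.2, 599, 521 and 636 TPM in ABA+Glc seeds, against 846, 810.3, 917 and 875 TPM in Glc seeds (log2 change -0.56 ± 0.07 (SE), adjusted p = 1.81e-05), while *PME31* rose by 0.42. *PMEI12* (AT5G46960), annotated in a family of invertase and pectin methylesterase inhibitors, had 4.06, 4.37, 4.81 and 4.22 TPM in ABA+Glc seeds, against 14.6, 15.8, 16.2 and 11.5 TPM in Glc seeds and was among the 12 largest falls (log2 change -1.62).

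Very-long-chain fatty acids and waxes cover the surface of the seed and seedling. Of 15 tested genes that make or carry surface lipids 9 fell and 0 rose, also without ABA+Glc replicate 3, with a median log2 change of -0.57. *KCS19* (AT5G04530), a 3-ketoacyl-CoA synthase, had 2.53, 3.33, 1.86 and 2.51 TPM in ABA+Glc seeds, against 11.3, 12.2, 11.8 and 10.3 TPM in Glc seeds (log2 change -1.98 ± 0.16 (SE), adjusted p = 6.5e-08). *CER1* (AT1G02205), needed for wax alkanes, had 1.3, 1.23, 1.61 and 1.2 TPM in ABA+Glc seeds, against 5.42, 7.37, 7.11 and 5.68 TPM in Glc seeds (log2 change -1.90 ± 0.19 (SE), adjusted p = 1.06e-06). *KCS20* (AT5G43760) had 6.73, 8.35, 9.54 and 7.25 TPM in ABA+Glc seeds, against 20.03, 20.1, 17.1 and 20.3 TPM in Glc seeds (log2 change -1.24 ± 0.11 (SE), adjusted p = 2.03e-07). Summed over the 21 listed genes, the level was 327.3 to 351.5 TPM in ABA+Glc libraries and 439.0 to 471.5 TPM in Glc libraries. Among 4 markers of the embryo epidermis, *PDF1* (AT2G42840) had 222, 216, 267 and 206 TPM in ABA+Glc seeds, against 298, 305, 302 and 309 TPM in Glc seeds and fell (log2 change -0.42 ± 0.07 (SE), adjusted p = 0.000238), whereas *ATML1*, *PDF2* and *ACR4* had log2 changes of -0.06, -0.02 and 0.07 and did not pass the test. In whole seeds, fewer cells of a type and less RNA per cell cannot be told apart.

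Of 19 tested genes of the wound, touch and defence response 10 fell and 0 rose, with a median log2 change of -0.49. The ubiquitin ligase genes *PUB23* and *PUB22* fell by 1.24 and 1.22 on the log2 scale. *TCH3* (AT2G41100), a touch-induced calmodulin-like gene, had 0.18, 0.87, 0.57 and 0.19 TPM in ABA+Glc seeds, against 2.26, 1.43, 1.19 and 2.35 TPM in Glc seeds (log2 change -1.31 ± 0.27 (SE), adjusted p = 0.0028). The summed level of the list was 124.9, 119.9, 158.9 and 117.5 TPM in ABA+Glc libraries and 174.1, 190.7, 177.9 and 185.9 TPM in Glc libraries.

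Gibberellin promotes germination against ABA. Of 11 tested genes of its synthesis and deactivation 3 fell and 0 rose, with a median log2 change of 0.03, and the 3 encode oxidases late in synthesis. *GA3OX1* (AT1G15550), which makes the active hormone, had 6.94, 8.48, 9.11 and 8.08 TPM in ABA+Glc seeds, against 11.2, 12.9, 13.2 and 12.6 TPM in Glc seeds (log2 change -0.59 ± 0.09 (SE), adjusted p = 0.000133). *GA3OX2* (AT1G80340) had 40.5, 38.8, 55.8 and 38.6 TPM in ABA+Glc seeds, against 49.8, 56.7, 56.8 and 64.7 TPM in Glc seeds (log2 change -0.40 ± 0.10 (SE), adjusted p = 0.0125), with ABA+Glc replicate 3 inside the range of the Glc libraries. *GA20OX2* fell by 0.35, and its call ended when any of 5 libraries was left out, ABA+Glc replicates 1 and 2 and Glc replicates 2, 3 and 4 (log2 changes of -0.35 to -0.30). Of 12 tested genes of gibberellin signalling 2 fell and 0 rose. Without ABA+Glc replicate 3, 1 fell and 2 rose, and without Glc replicate 2, 1 fell. *GASA4* (AT5G15230), a gibberellin-regulated peptide gene, had 358, 338, 313 and 353 TPM in ABA+Glc seeds, against 442, 487, 480.1 and 455 TPM in Glc seeds (log2 change -0.45 ± 0.08 (SE), adjusted p = 0.000911).

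**Figure D4:**
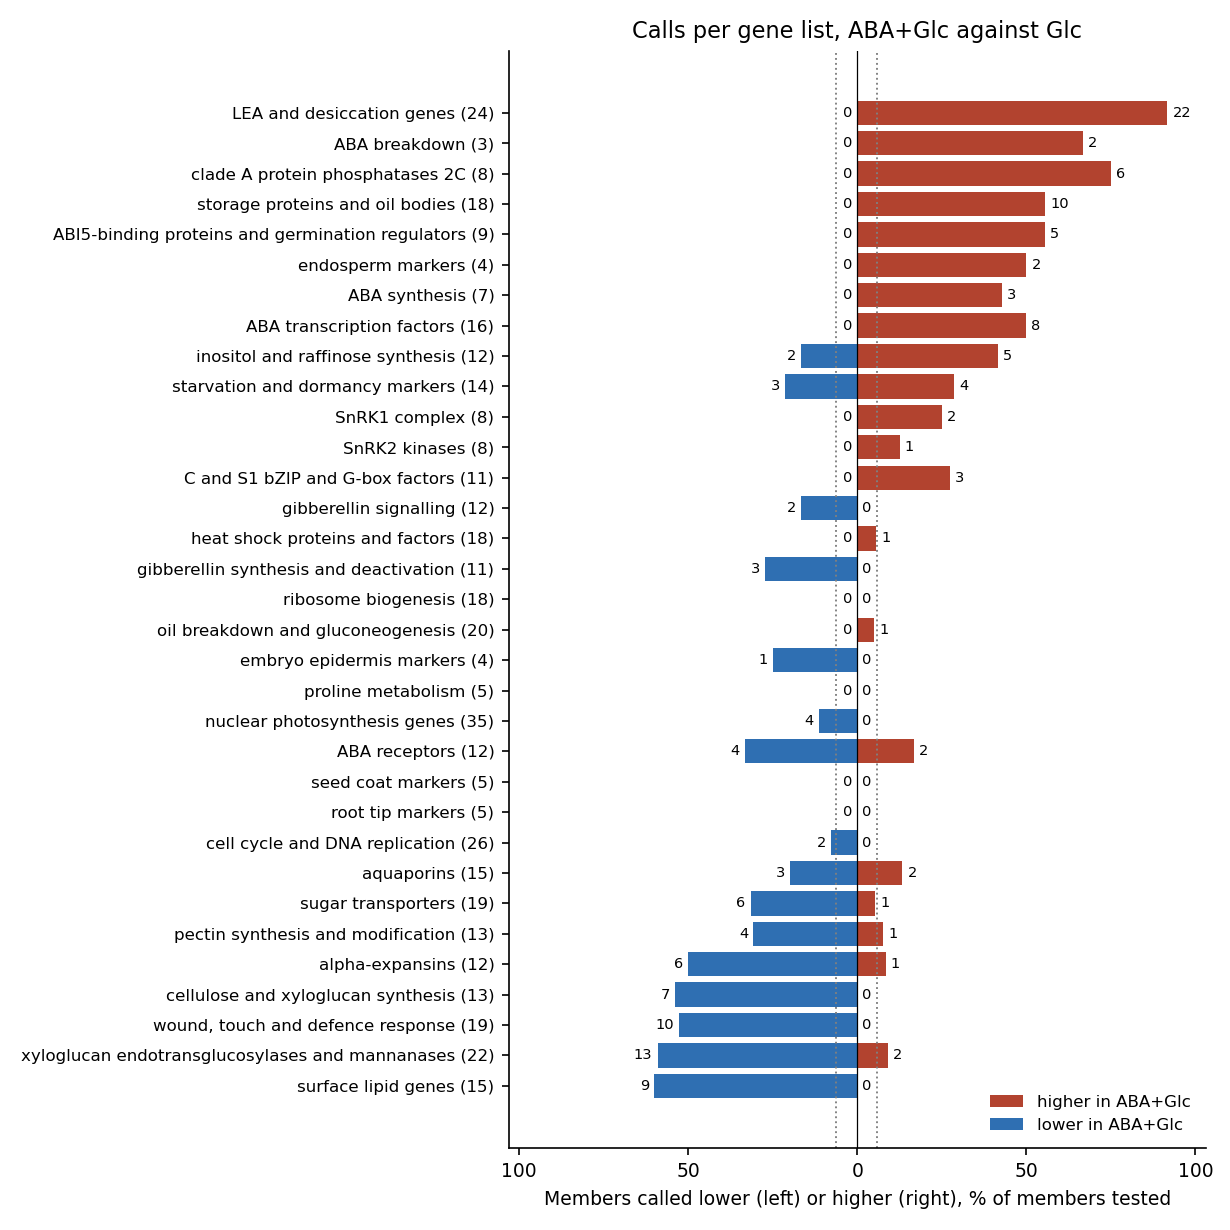
Share of tested members of each of 33 gene lists (number tested in brackets) called lower in ABA+Glc than in Glc (left) and called higher (right), in % of members tested with the number of genes beside each bar, and lists ordered by median log2 change. Dotted lines mark the shares over all genes tested, 5.82% higher and 6.16% lower, and LEA and desiccation genes reach furthest to the right with 22 of 24.

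Of 19 tested sugar transporter genes 6 fell and 1 rose (median log2 change -0.21). The proton and hexose symporter genes *STP1* and *STP4* were among the 6. *STP4* (AT3G19930) had 27.1, 29.4, 24.7 and 27.5 TPM in ABA+Glc seeds, against 43.4, 43.9, 44.1 and 38.2 TPM in Glc seeds (log2 change -0.63 ± 0.08 (SE), adjusted p = 1.79e-05), and *STP1* (AT1G11260) had 12.5, 12.1, 8.51 and 10.1 TPM in ABA+Glc seeds, against 19.2, 17.1, 18.5 and 14.7 TPM in Glc seeds (log2 change -0.67 ± 0.11 (SE), adjusted p = 0.000391). The groups lay apart in both genes. *STP7*, *STP13* and *STP14* did not pass the test (log2 changes 0.16, 0.17 and -0.28), nor did the polyol transporter genes *PLT4* and *PLT5* (-0.17 and -0.18). The adjusted p of *PLT5* was 0.0322, but its change was under the minimum. *SWEET15* (AT5G13170), of the same family as *SWEET1*, had 17.43, 22.0, 24.2 and 21.3 TPM in ABA+Glc seeds, against 37.4, 37.7, 36.6 and 38.6 TPM in Glc seeds (log2 change -0.82 ± 0.11 (SE), adjusted p = 2.61e-05). *TMT2* (AT4G35300), which loads sugar into the vacuole, had 93.3, 91.6, 69.3 and 87.1 TPM in ABA+Glc seeds, against 66.0, 58.9, 63.6 and 60.5 TPM in Glc seeds and was the 1 member that rose (log2 change 0.44 ± 0.07 (SE), adjusted p = 0.000351). *GPT2* (AT1G61800, chr1:22824414-22826902), a glucose-6-phosphate translocator of plastids that is induced by sugar, had 8.98, 8.19, 7.59 and 8.37 TPM in ABA+Glc seeds, against 32.0, 34.8, 30.7 and 29.3 TPM in Glc seeds. It was among the 12 largest falls (log2 change -1.87 ± 0.08 (SE), adjusted p = 7.21e-12).

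SnRK1 is the kinase that signals low energy. *KIN10*, which encodes a catalytic subunit, had 38.0, 39.0, 41.8 and 35.9 TPM in ABA+Glc seeds, against 41.3, 37.4, 36.9 and 42.0 TPM in Glc seeds and did not pass the test (log2 change -0.03, adjusted p = 0.83). AT1G69800, taken here as the gene that the paper calls *KING2* although the text gives no locus, had 38.3, 38.1, 25.3 and 35.4 TPM in ABA+Glc seeds, against 24.4, 20.8, 20.8 and 19.7 TPM in Glc seeds (log2 change 0.65 ± 0.10 (SE), adjusted p = 0.000206). *KING1* (AT3G48530) had 105, 102, 79.6 and 108 TPM in ABA+Glc seeds, against 85.2, 75.4, 83.9 and 74.1 TPM in Glc seeds (log2 change 0.30 ± 0.09 (SE), adjusted p = 0.0269). Its call ended when any of 5 libraries was left out, ABA+Glc replicates 1, 2 and 4 and Glc replicates 2 and 4 (log2 changes of 0.25 to 0.28), and with the libraries scaled to the same sum (0.23). Of the SnRK1 complex 2 of 8 tested genes rose and 0 fell, and 1 rose where *KING1* lost its call.

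Of 14 tested starvation and dormancy markers 4 rose and 3 fell (median log2 change 0.12), and 5 rose and 2 fell without ABA+Glc replicate 3. *DRM1* (AT1G28330), a dormancy-associated gene, had 194, 202, 195 and 202 TPM in ABA+Glc seeds, against 97.4, 108, 104 and 112 TPM in Glc seeds (log2 change 0.91 ± 0.06 (SE), adjusted p = 9.05e-09), and *DRM2* rose by 0.71. The call of *DRM2* ended without ABA+Glc replicate 4 or Glc replicate 3 (log2 changes of 0.62 to 0.66). *DIN6*, the dark-induced asparagine synthetase gene, had 1.69, 1.64, 1.13 and 1.05 TPM in ABA+Glc seeds, against 0.92, 1.01, 0.87 and 0.55 TPM in Glc seeds and did not pass the test (log2 change 0.49, adjusted p = 0.0583). It was called higher without ABA+Glc replicate 3 (log2 change 0.55, adjusted p = 0.0482). The dark-induced gene *DIN10* (AT5G20250), of the raffinose synthase family, had 253, 227, 214 and 231 TPM in ABA+Glc seeds, against 400.2, 380.1, 392 and 388 TPM in Glc seeds and fell (log2 change -0.75 ± 0.06 (SE), adjusted p = 1.73e-08). *BT2* (AT3G48360) had 7.11, 6.19, 6.88 and 5.4 TPM in ABA+Glc seeds, against 11.3, 10.6, 9.68 and 12.2 TPM in Glc seeds (log2 change -0.73 ± 0.10 (SE), adjusted p = 2.55e-05). Among 11 tested C and S1 bZIP and G-box factors 3 rose and 0 fell. *GBF1* (AT4G36730) had 78.5, 84.0, 90.3 and 84.1 TPM in ABA+Glc seeds, against 58.4, 62.2, 60.5 and 61.2 TPM in Glc seeds (log2 change 0.47 ± 0.05 (SE), adjusted p = 2.01e-06), *GBF2* rose by 0.57 and *BZIP9* by 0.56, and the S1 genes *BZIP1*, *BZIP2*, *BZIP11*, *BZIP44* and *BZIP53* did not pass the test. 1 member fell when ABA+Glc replicates 2 or 4 or Glc replicates 1 or 3 were left out.

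Sugars that protect dry cells were represented by 12 tested genes of inositol and raffinose synthesis, of which 5 rose and 2 fell. *GOLS2* (AT1G56600), a galactinol synthase, had 4.88, 4.63, 4.22 and 3.12 TPM in ABA+Glc seeds, against 0.56, 1.06, 0.58 and 0.38 TPM in Glc seeds (log2 change 2.06 ± 0.20 (SE), adjusted p = 7.86e-07). *MIPS2* (AT2G22240), an inositol phosphate synthase, had 3.86, 3.79, 3.14 and 3.82 TPM in ABA+Glc seeds, against 1.33, 1.17, 1.21 and 0.69 TPM in Glc seeds (log2 change 1.39 ± 0.17 (SE), adjusted p = 9.7e-06), and *STS*, a stachyose synthase gene, rose by 1.14 at low levels (1.01, 0.78, 0.61 and 0.52 TPM in ABA+Glc seeds, against 0.04, 0.03, 0.10 and 0.04 TPM in Glc seeds). *RS5*, a raffinose synthase gene, fell by 0.72. The second member that fell, *VTC4* (log2 change -0.39), lost its call when any of 6 libraries was left out, which were ABA+Glc replicates 1, 2 and 4 and Glc replicates 1, 2 and 3 (log2 changes of -0.41 to -0.28).

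Groups with few or no calls were also found. Of 20 tested genes of oil breakdown and gluconeogenesis only the thiolase gene *KAT5* was called (log2 change 0.66), and their summed level was 22270 to 22820 TPM in ABA+Glc libraries and 23050 to 24370 TPM in Glc libraries. None of 18 ribosome biogenesis genes and none of 5 proline genes passed the test in limma, with 1 in each list at an unadjusted p under 0.05. Of 26 tested cell cycle and DNA replication genes 2 fell, *CYCD3;3* (log2 change -0.48 ± 0.10 (SE), adjusted p = 0.00244) and *PCNA1* (log2 change -0.39). The call of *PCNA1* ended without ABA+Glc replicates 3 or 4 or Glc replicates 1, 2 or 3 (log2 changes of -0.41 to -0.25). Of 35 tested nuclear photosynthesis genes 4 fell and 0 rose (median -0.08), with 9 falling when libraries were scaled to the same sum. *RBCS1B* (AT5G38430), a Rubisco small subunit gene with near-identical copies that may share reads, had 3.60, 2.96, 3.16 and 3.0 TPM in ABA+Glc seeds, against 4.66, 8.61, 7.27 and 6.44 TPM in Glc seeds (log2 change -0.95 ± 0.15 (SE), adjusted p = 0.000159). *ELIP2* (AT4G14690), a light-stress protein of plastids, had 18.7, 19.3, 19.2 and 17.03 TPM in ABA+Glc seeds, against 41.5, 55.7, 72.4 and 54.4 TPM in Glc seeds and was among the 12 largest falls (log2 change -1.54 ± 0.12 (SE), adjusted p = 5.59e-08).

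The rest of the 12 largest falls among genes with at least 10 TPM came from varied families. *CER1* and *XTH33*, with log2 changes of -1.90 and -1.82 at lower levels, were not among the 12. *MSRB9* (AT4G21850), a methionine sulfoxide reductase, had 4.15, 5.41, 4.84 and 4.18 TPM in ABA+Glc seeds, against 16.1, 16.6, 19.6 and 16.02 TPM in Glc seeds (log2 change -1.77 ± 0.10 (SE), adjusted p = 4.34e-10). *ASPGB1* (AT3G16150), an asparaginase, had 4.68, 5.4, 4.73 and 5.10 TPM in ABA+Glc seeds, against 15.5, 16.03, 14.4 and 15.8 TPM in Glc seeds (log2 change -1.54 ± 0.13 (SE), adjusted p = 7.43e-08). *PER69* (AT5G64100), a peroxidase, had 12.2, 13.8, 8.66 and 10.2 TPM in ABA+Glc seeds, against 31.6, 33.7, 34.4 and 28.0 TPM in Glc seeds (log2 change -1.48 ± 0.11 (SE), adjusted p = 3.5e-08). In these 3 genes every ABA+Glc library lay below every Glc library. The zinc finger gene *LATE* and AT4G16230, a GDSL-like lipase gene, fell by 1.46 and 1.48 on the log2 scale.

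Plastid-encoded genes were higher in 19 and lower in 0 of 87 tested genes, with a median log2 change of 0.31 (22 and 0 without ABA+Glc replicate 3, median 0.43). They took 3.75%, 3.68%, 3.55% and 3.85% of the sum of values in ABA+Glc libraries and 2.89%, 2.44%, 3.70% and 3.57% in Glc libraries, so that 2 of the Glc libraries lay within the ABA+Glc range and the groups overlapped. In ABA against control 0 were higher and 1 was lower (median -0.12). The difference between both effects was called positive in 2 of the 87 genes and negative in 0. The paper names an mRNA kit for its libraries, and how fully it captured transcripts of plastids and mitochondria is unknown.

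Markers of other cells of the seed were read beside these results. Among endosperm markers, *MAN7* and *CYP707A2* rose as given above, *EXPA2* did not, and *EPR1* had 149, 172, 389 and 150.3 TPM in ABA+Glc seeds, against 166, 168, 153 and 207 TPM in Glc seeds with ABA+Glc replicate 3 far above the other libraries (adjusted p = 0.619). The summed level of the 5 endosperm markers was 1600 to 1795 TPM in ABA+Glc libraries and 1581 to 1671 TPM in Glc libraries. Most of this sum came from *EXPA2*, so it says little about the other markers. *ZOU* was at 0 in 7 of the 8 libraries. Of 12 seed coat markers 5 were tested and 0 were called, their summed level being 470.4 to 489.4 TPM in ABA+Glc libraries and 442.2 to 463.3 TPM in Glc libraries, almost all of it from *SBT1.7*. Without ABA+Glc replicate 2, 1 of them fell. *BAN*, *TT10*, *TT2*, *TT16* and *PRX36* were at 0 in all 8 libraries. Of 6 root tip markers 5 were tested and 0 called (35.6 to 43.0 TPM in sum in ABA+Glc libraries and 37.1 to 43.2 TPM in Glc libraries). The part of other cell types in the results was not tested beyond these levels.

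Heat shock genes moved with 1 library. Of 18 tested heat shock proteins and factors 1 rose and 0 fell, and that gene, *HSFA9* (log2 change 0.72), lost its call when any of 6 libraries was left out, ABA+Glc replicates 1, 2 and 3 and Glc replicates 1, 2 and 4 (log2 changes of 0.62 to 0.73). The summed level of the list was 182.2, 183.4, 415.5 and 187.6 TPM in ABA+Glc libraries and 277.6, 163.7, 245.4 and 193.2 TPM in Glc libraries. Against the Glc mean, ABA+Glc replicate 3 had a median of 0.83 over the members on the log2 scale, and the 3 libraries beside it had -0.21 to -0.19. *HSP17.4*, a small heat shock protein gene, had 38.3, 37.9, 108 and 41.0 TPM in ABA+Glc seeds, against 70.8, 30.7, 55.2 and 43.1 TPM in Glc seeds. The ABA+Glc libraries other than replicate 3 lay within the range of the Glc libraries for this gene.

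Leaving out ABA+Glc replicate 3 ended 371 calls and added 291. Among genes with at least 10 TPM whose call changed, the largest move was in the plastid gene *PSBD*, with 35.2, 27.0, 11.6 and 30.6 TPM in ABA+Glc seeds, against 13.0, 10.8, 18.18 and 19.5 TPM in Glc seeds and a log2 change of 0.67 with replicate 3 and 1.02 without it (adjusted p = 0.00295). AT5G66985, an uncharacterized gene, had 239, 234, 514 and 244 TPM in ABA+Glc seeds, against 309, 345, 331 and 338 TPM in Glc seeds. Its log2 change was -0.19 (adjusted p = 0.52) with replicate 3 and -0.47 (adjusted p = 7.39e-06) without it. Replicate 3 lay above all Glc libraries in this gene and the other 3 ABA+Glc libraries below them. The plastid gene *PETN* was called higher only without replicate 3 (0.77, adjusted p = 0.0416). *PSAJ* and *NIMIN-2* were called higher only with it, at 0.62 and 0.60, against 0.37 and 0.35 without it. These 2 calls also ended without other libraries, which were Glc replicates 1 and 2 for *PSAJ* (log2 changes up to 0.55) and Glc replicates 1, 3 and 4 for *NIMIN-2* (up to 0.59).

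The ABA effect with Glc was then set against the ABA effect without Glc, that is ABA against control, which shares no library with it. ABA alone raised 1744 genes (9.97%) and lowered 2237 (12.8%), so that 1.9 times as many genes were called as with Glc. The log2 changes with Glc followed those without it across genes, with Pearson's r of 0.83, Spearman's rho of 0.60 and a slope of 0.61 over 17500 genes, which are not independent replicates. The SD of the log2 changes was 0.39 with Glc and 0.52 without. Of the genes raised with Glc 803 (78.8%) were also raised without Glc, which is 46.0% of those raised without it. Of the genes lowered with Glc 919 (85.3%) were also lowered without Glc, 41.1% of those lowered without it. Only 4 and 3 genes were called in opposite directions.

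Most of the shared genes changed less when Glc was present. Among the 803 genes raised in both comparisons 700 (87.2%) had the smaller change with Glc, and among the 919 lowered in both 708 (77.0%) did. The difference between the effects, with Glc minus without, was itself called in 230 genes as positive (1.31%) and in 291 as negative (1.66%). It rests on all 4 groups, so a smaller change with Glc can come from the level with ABA or from the level without ABA. Without ABA+Glc replicate 3 it was called in 298 (1.7%) and 339 (1.94%), of which 206 and 277 were shared. The 14 libraries taken as those of the paper leave out ABA replicate 3 as well. With these 14 the difference was called in 654 genes, against 521 over all libraries. Of the genes raised with Glc, 221 had a negative and 22 a positive difference, and of the genes lowered with Glc 82 had a positive and 10 a negative difference. Among genes raised by ABA alone the counts were 280 negative and 2 positive, and among those lowered by ABA alone 202 positive and 1 negative. Genes chosen for a change in 1 of the comparisons share libraries with the difference, which by itself tilts the counts toward a smaller change with Glc when genes are chosen on ABA alone, and toward a larger change with Glc when they are chosen on ABA with Glc.

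**Figure D5:**
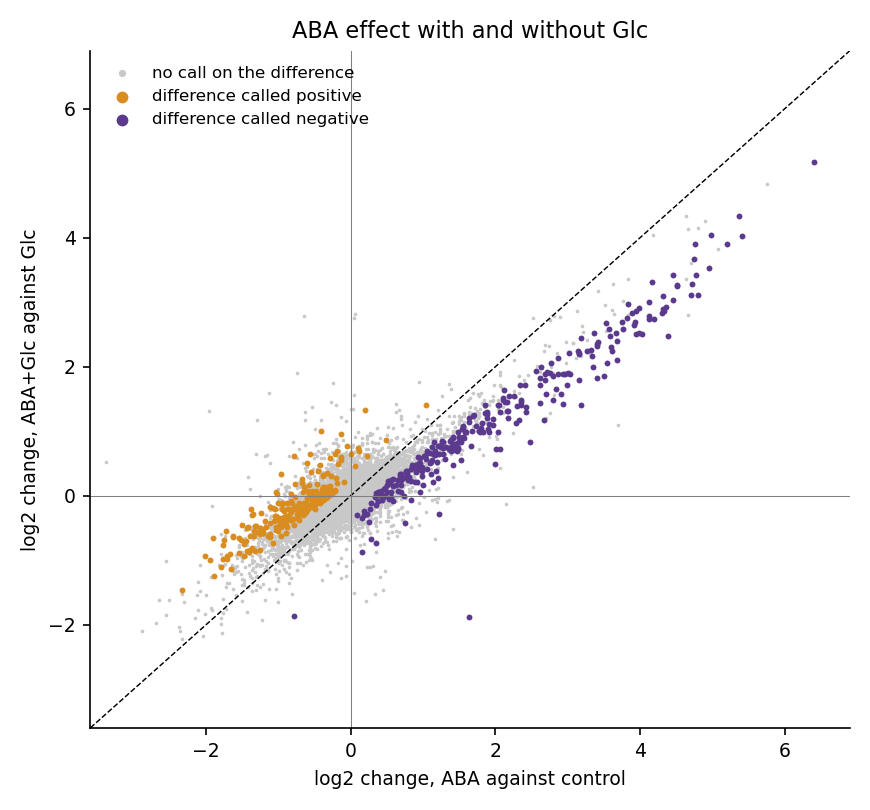
Log2 change of 17500 genes for ABA+Glc against Glc (y axis) and for ABA against control (x axis), each point a gene, with the genes whose difference was called positive or negative in colour and the dashed line marking equal change. Most of the genes with large rises lie below the dashed line.

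LEA and desiccation genes changed less with Glc than without. Their median log2 change was 2.51 with Glc and 3.59 without it, and the difference was called negative in 15 of 24 tested genes and positive in 0. *LTI78* changed by 5.18 with Glc and 6.41 without (difference -1.23, adjusted p = 0.00408). *RAB18* changed by 1.85 and 3.50 (difference -1.65, adjusted p = 0.00423). The largest negative difference among genes with at least 10 TPM was in *SMP1* (AT3G12960), a seed maturation protein, at 2.48 with Glc and 4.38 without (-1.90, adjusted p = 0.00215). Mean *SMP1* was 103.6 TPM in ABA+Glc and 170.6 TPM in ABA seeds, and 17.75 TPM in Glc and 8.22 TPM in control seeds. In the same order, means were 630.8, 1206, 178.1 and 112.7 TPM for *RAB18*. For *LTI78* they were 45.98, 93.38, 0.80 and 0.62 TPM. Mean levels without ABA were thus also higher with Glc in these genes, least so in *LTI78*. The Glc and control libraries overlapped in *RAB18* and *LTI78*, however. For *RAB18*, Glc replicate 4 had 117 TPM and control replicate 3 had 180 TPM. Glc against control was not tested. AT3G05260, of the NAD(P)-binding Rossmann-fold family, differed by -1.77, and AT4G25580, annotated as a CAP160 protein, by -1.69. *HSD1*, a hydroxysteroid dehydrogenase of oil bodies, and the oil body gene *OBAP1A* differed by -1.65 and -1.58. In the last 2 genes Glc replicate 4 was far below the other Glc libraries (20.1, 19.4, 20.8 and 7.84 TPM of *HSD1* and 9.44, 12.5, 11.3 and 4.12 TPM of *OBAP1A*). The rise of *HSD1* with Glc (log2 change 0.83) lost its call when any ABA+Glc library or Glc replicate 4 was left out (0.51 to 0.86), and close copies of *HSD1* may share its reads.

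In the signalling genes 5 of the 8 PP2Cs had a negative difference, and *AHG1*, the largest, changed by 1.88 with Glc and 2.69 without (difference -0.81, adjusted p = 0.00437). *ABI5* changed by 1.48 and 2.1 (difference -0.62, adjusted p = 0.0149). The receptor genes *PYL6* and *PYL4* were lowered less with Glc, *PYL6* by 0.94 against 1.71 without (difference 0.77, adjusted p = 0.00175) and *PYL4* by 0.52 against 1.21 (difference 0.68, adjusted p = 0.00167). *PYR1*, not called with Glc, was lowered by 0.77 without it (difference 0.75, adjusted p = 0.00838). The SnRK2 genes had no called difference, with adjusted p of 0.147 to 0.993 over the 8 tested.

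Positive differences of large size were found in genes of other kinds. *PORB* (AT4G27440), a protochlorophyllide reductase of chlorophyll synthesis, had 23.4, 21.9, 17.84 and 23.1 TPM in ABA+Glc seeds, against 35.5, 35.5, 32.2 and 30.3 TPM in Glc seeds, a log2 change of -0.62 with Glc and -1.63 without (difference 1.0, adjusted p = 0.000655). Its mean was 21.58 TPM in ABA+Glc seeds and 20.81 TPM in ABA seeds, but 33.35 TPM in Glc seeds and 65.59 TPM in control seeds. AT2G32560, an F-box gene, AT1G29080, a papain family protease gene, and the bHLH gene *HEC1* were also lowered less with Glc, with differences of 1.08, 1.05 and 1.05. The fall of *HEC1* with Glc (log2 change -0.46) lost its call when any library but ABA+Glc replicate 3 was left out (-0.47 to -0.36). AT2G41730, annotated as a calcium-binding site protein, had a log2 change of 0.62 with Glc and -0.78 without (difference 1.4, adjusted p = 0.00409), and the mitochondrial *ORF240A* changed by 0.96 and -0.14 (difference 1.1). The rise of AT2G41730 with Glc lost its call without ABA+Glc replicates 3 or 4 or Glc replicates 2 or 3 (log2 changes of 0.44 to 0.60). The difference of *ORF240A* was no longer called without ABA+Glc replicate 3 (adjusted p = 0.0611).

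Some sugar and energy genes did not follow the pattern of smaller changes. *GPT2* fell further with Glc than without, by 1.87 against 0.78 (difference -1.1, adjusted p = 4.1e-05). Its mean was 8.28 ± 0.572 TPM in ABA+Glc seeds and 31.7 ± 2.31 TPM in Glc seeds, and 6.07 ± 0.385 TPM in ABA seeds and 10.8 ± 0.859 TPM in control seeds (SD, n = 4). *BT2* fell by 0.73 with Glc and rose by 0.35 without (difference -1.08, adjusted p = 0.000209). AT3G15450, annotated as an aluminum-induced protein, likewise had -0.42 with Glc and 0.75 without (difference -1.17, adjusted p = 0.00124). Its fall with Glc lost the call when any of 5 libraries was left out, ABA+Glc replicates 2 and 3 and Glc replicates 1, 2 and 3 (log2 changes of -0.44 to -0.26). *DIN6*, *DIN10* and *STP4* did follow it. *DIN6* rose by 2.0 with ABA alone, and its log2 change with Glc was 0.49 (difference -1.51, adjusted p = 0.00121). *DIN10* fell by 0.75 with Glc and 1.47 without (difference 0.72, adjusted p = 7.54e-05), and *STP4* by 0.63 and 1.15 (difference 0.52, adjusted p = 0.0157). Mean *STP4* was 27.2 TPM in ABA+Glc seeds and 27.9 TPM in ABA seeds, but 42.4 TPM in Glc seeds and 62.6 TPM in control seeds. Mean *DIN10* was 231.3 TPM in ABA+Glc seeds and 203.4 TPM in ABA seeds, against 390.1 TPM in Glc seeds and 566 TPM in control seeds. *KIN10* had no called change in either comparison (log2 changes -0.03 and 0.04).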

How the data were processed

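RNA-seq was run on whole seeds labelled *sweet1*, with 4 libraries in each of 4 groups that were taken from the labels. Trimming was done by the authors in Trimmomatic (0.38), abundance was estimated on primary transcripts in kallisto (0.44.0), and sleuth was also used. The deposited values, treated here as a score, are headed TPM, but their sums differed between libraries. The scaling step behind this is not stated by the authors. They are not counts, so no count model was used and depth is unknown. The labels and the methods name different sequencers. Labels call the samples biological replicates, but no culture or plant is named for them, so that p-values measure the spread between these samples, which may be partly technical.

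Values were tested as log2(TPM + 0.5) in limma (3.58.1, R 4.3.3). A single model of 4 group means was fitted over 16 libraries with a trended prior variance, and p-values were adjusted by Benjamini-Hochberg over 17500 genes. A fold change on this scale understates that of low genes. The fit was checked on simulated data. Calls needed an adjusted p below 0.05 and a change of 0.2 on the natural log scale. Of 27655 genes, 27445 matched the TAIR10.1 RefSeq annotation, from which positions and promoters were read. Figures were drawn with matplotlib (3.10.9) in Python (3.11.15).

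The 33 gene lists and the named genes were chosen with earlier results of these data known. Named were the 12 largest rises and falls called with and without ABA+Glc replicate 3, with at least 10 TPM and no overlap, up to 3 called members of each list and those against its direction, all receptors, PP2Cs, SnRK2s and ABA factors, genes the paper names, the 6 largest differences of each sign and the 5 largest moves without ABA+Glc replicate 3. Other list members named, most of them not called, were chosen after their values were seen. Alternatives were leaving out libraries, other pseudocounts, filters, scalings and thresholds, and a replicate block.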

Additional observations from a re-analysis of the deposited data

Results flagged for a closer look

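Among the 179 genes that the text names, in each of the 2 groups of 4 libraries, the library at either end was compared with the range of its group. It stood apart when its gap to the nearest other library exceeded the share of the whole range that Dixon's 95% critical value for 4 samples sets. This was met in 36 of 358 groups (10.1%), while chance alone gives about 5% and the genes share libraries. ABA+Glc replicate 3 was the highest library of its group for *COR47* (100.1 TPM), *GA3OX2* (55.8 TPM), *EPR1* (389 TPM), *NIMIN-2* (17.5 TPM), *HSP17.4* (108 TPM), *PYR1* (427 TPM), *HB5* (222 TPM), AT5G66985 (514 TPM), *HEC1* (26.1 TPM) and *PSAJ* (1941 TPM). ABA+Glc replicate 1 was the highest library of its group for *PYL13* (19.0 TPM) and *RS5* (1.13 TPM). ABA+Glc replicate 4 was the highest library of its group for *DRM2* (8.10 TPM) and *PYL5* (53.4 TPM). ABA+Glc replicate 2 was the highest library of its group for *TIP3;2* (27.3 TPM). ABA+Glc replicate 2 was the lowest library of its group for *PDF2* (88.6 TPM). ABA+Glc replicate 3 was the lowest library of its group for *MIPS2* (3.14 TPM). ABA+Glc replicate 4 was the lowest library of its group for AT2G42560 (261 TPM). Glc replicate 4 was the lowest library of its group for *CRU2* (0.50 TPM), AT2G32560 (23.55 TPM), *STP4* (38.2 TPM), *CYCD3;3* (18.3 TPM), AT4G36600 (5.46 TPM) and *HSD1* (7.84 TPM). Glc replicate 2 was the lowest library of its group for *SNRK2.10* (42.4 TPM), *HB7* (1.51 TPM) and *AREB3* (28.5 TPM). Glc replicate 3 was the highest library of its group for *ZOU* (0.18 TPM), *STS* (0.10 TPM) and *MSRB9* (19.6 TPM). Glc replicate 4 was the highest library of its group for *HAB2* (19.0 TPM), *PYL6* (34.7 TPM) and *BZIP9* (6.10 TPM). Glc replicate 2 was the highest library of its group for *ERD10* (9.13 TPM) and *PYL1* (6.34 TPM). Glc replicate 3 was the lowest library of its group for *KCS20* (17.1 TPM). ABA+Glc replicate 3 was the highest library in 10 of these cases and the lowest in 1, and Glc replicate 4 was the lowest in 6 and the highest in 3.

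The ABA effect with Glc differed from the effect without it, by limma's test of the difference itself, in 54 of the named genes. Over all genes tested, 1.31% had a positive and 1.66% a negative difference. The named genes include those chosen for the largest differences and many chosen for large ABA effects. Their count is therefore raised by the choice and is not a rate for genes in general. Values are log2 changes with Glc minus those without. A positive difference was found for *GA3OX1* (0.66), AT1G29080 (1.05), *EXPA1* (0.50), *GA3OX2* (0.66), *BZIP2* (0.56), AT2G32560 (1.08), *PYL4* (0.68), *ABI4* (0.51), *PYL6* (0.77), AT2G41730 (1.4), *PME3* (0.33), *STP4* (0.52), *PYR1* (0.75), *PORB* (1.0), *DIN10* (0.72), *KCS20* (0.65), *LATE* (0.87), *HEC1* (1.05) and *ORF240A* (1.1). A negative difference was found for *OBAP1A* (-1.58), *HAI2* (-0.49), *DRM1* (-0.51), *GPT2* (-1.1), AT1G69800 (-0.57), *HAB1* (-0.53), *NCED9* (-0.97), *PV42B* (-0.94), *MIPS2* (-0.91), *HAI3* (-0.64), *ABI5* (-0.62), *HB7* (-0.87), AT3G05260 (-1.77), *PP2CA* (-0.40), *SMP1* (-1.90), AT3G15450 (-1.17), *ABF4* (-0.44), *AFP3* (-0.59), *DIN6* (-1.51), *BT2* (-1.08), *EM1* (-1.4), AT3G53040 (-1.3), *PYL13* (-0.85), AT4G25580 (-1.69), *TMT2* (-0.40), AT4G36600 (-0.85), *OLEO2* (-1.03), *CRA1* (-1.05), *HSD1* (-1.65), *AHG1* (-0.81), *LTI65* (-1.04), *LTI78* (-1.23), *RAB18* (-1.65), *MAN7* (-0.60) and *ABA1* (-0.60). Without ABA+Glc replicate 3 the differences of *MIPS2* (-0.85, adjusted p = 0.0661) and *ORF240A* (1.04, adjusted p = 0.0611) were no longer called.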

How the results depend on the processing

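With libraries left out in turn, the number of genes higher in ABA+Glc than in Glc ranged from 893 (without Glc replicate 1) to 1026 and the number lower from 918 (without Glc replicate 1) to 1076. The number of genes whose ABA effect differed with and without Glc ranged from 391 (without Glc replicate 1) to 637 (without ABA+Glc replicate 3), against 521 over all libraries, and the correlation of both effects from 0.803 to 0.834. With a filter of 10 TPM, 572 genes were lower, against 1078, and the correlation was 0.898. Fewer genes were tested under this filter. With a minimum change of 2-fold, 285 genes were higher, 131 lower and 98 differed between the effects. The other alternatives (pseudocounts of 0.1 and 1, no filter, no trend, no minimum change, scaling to the same sum, quantile normalization, the 8 libraries of the contrast alone and the 14 libraries of the paper) kept these counts within 1.5 times. The share of rises among the calls was 48.6% as deposited, 44.1% after quantile normalization and 33.3% after scaling to the same sum. No named gene that was called reversed under the alternatives run. With ABA+Glc replicate 3 left out, 2 genes of gibberellin signalling rose and 1 fell, against 0 and 2 over all libraries, and the median log2 change of heat shock genes was -0.24, against 0.06. Without this replicate 5 pectin genes, 11 wound, touch and defence genes, 3 nuclear photosynthesis genes, 2 aquaporins and 1 cell cycle gene fell, against 4, 10, 4, 3 and 2. Of the 124 named genes called, 19 lost the call when 1 of the 8 libraries was left out, 5 when scaled to the same sum and 16 with the 8 libraries of the contrast alone. The files hold no counts, so depth, and with it the precision of low values, is unknown.

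The labels number the replicates 1 to 4 in each group. Deviations from the group means of same-numbered ABA+Glc and Glc libraries correlated at 0.103, -0.005, -0.07 and -0.096, and not every library correlated best with its own number. With so few libraries these values cannot show whether same-numbered samples were handled together. With the replicate number as a block, 974 genes were higher and 1017 lower, 409 differed between the effects, the correlation was 0.826, and 4 named genes lost their call.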
